A study of Mus musculus with 30 samples.

Results

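The 5 type I interferon genes studied were followed across all 10 groups of an RNA sequencing study of mouse dendritic cells: Ifnb1, which encodes interferon beta, and Ifna1, Ifna2, Ifna4 and Ifna5, which encode interferon alpha subtypes. They were taken by gene symbol from the deposited count table, where each of the 5 symbols stood once among 25611 gene entries. Bone marrow cells from wild-type mice (Rubcn WT) or mice lacking Rubcn (Rubcn KO) had been grown for 6 to 7 days with FLT3L at 200 ng/ml, a cytokine under which conventional and plasmacytoid dendritic cells develop. Rubcn encodes Rubicon, a protein needed for LC3-associated phagocytosis, in which parts of the autophagy machinery act on phagosomes. Each genotype was sampled with no treatment, after OVA protein (ovalbumin) for 30 min or 4 h, and after the same 2 times with apoptotic Jurkat cells, giving 3 libraries per group and 30 in all. Jurkat is a human T-cell leukaemia line. Age, strain and the knockout allele were not given in the labels, nor whether the 3 libraries of a group came from separate mice or cultures, so p-values measure only the spread between these libraries, which may be technical.

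Type I interferons are secreted proteins that signal through one shared receptor, made of IFNAR1 and IFNAR2, and the JAK kinases and STAT factors behind it, which switch on antiviral genes. Their own genes are kept silent in resting cells and are induced when nucleic acids or microbial products engage Toll-like receptors, RIG-I-like receptors or the cGAS-STING route, which activate the factors IRF3, IRF7 and NF-kB. Plasmacytoid dendritic cells, which carry TLR7 and TLR9 and a high level of IRF7, are known for the large amounts they can make. Ifnb1 is often the earliest of the family to be induced, and the Ifna genes are a tandem family of recent copies.

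All 5 genes lie in the interferon cluster of chromosome 4 and have 1 exon in the GENCODE M21 annotation. On mm10, Ifnb1 (Entrez 15977) spans 88522025 to 88522794 and Ifna2 (Entrez 15965) spans 88683207 to 88683779, both on the minus strand. On the plus strand are Ifna5 (Entrez 15968) at 88835525 to 88836094, Ifna4 (Entrez 15967) at 88841816 to 88842459 and Ifna1 (Entrez 15962) at 88850087 to 88850656. The proximal promoters of 4 members are shown because induction of these genes is known to act through this stretch. Each runs from 90 bases before a TATA-type box to the end of the box, from RefSeq promoters of build GRCm38.p6, in the direction of transcription. Capitals mark AANNGAAA, an element of the kind that interferon regulatory factors bind, and GGGANNTTC, an element of the kind that NF-kB binds.
Ifnb1: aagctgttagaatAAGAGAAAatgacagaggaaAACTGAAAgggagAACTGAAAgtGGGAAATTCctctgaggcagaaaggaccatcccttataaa
Ifna4: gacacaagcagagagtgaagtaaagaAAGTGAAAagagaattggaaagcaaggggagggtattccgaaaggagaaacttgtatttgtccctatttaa
Ifna5: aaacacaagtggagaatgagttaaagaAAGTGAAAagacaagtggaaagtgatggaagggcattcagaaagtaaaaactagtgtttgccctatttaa
Ifna1: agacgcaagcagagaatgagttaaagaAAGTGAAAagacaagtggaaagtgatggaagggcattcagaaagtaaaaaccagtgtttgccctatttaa
The stretches lie at chr4:88522871-88522966 on the minus strand for Ifnb1, and on the plus strand at chr4:88841674-88841770 for Ifna4, chr4:88835335-88835431 for Ifna5 and chr4:88849897-88849993 for Ifna1. Ifnb1 held 3 matches to AANNGAAA and 1 to GGGANNTTC, which do not overlap each other. Each of the 3 Ifna stretches held 1 match to AANNGAAA and 0 to GGGANNTTC. In the whole windows of 300 bases around the gene starts, searched on both strands, AANNGAAA stood 3 times in Ifnb1 and Ifna4, 2 times in Ifna2 and Ifna5 and 1 time in Ifna1. The end of the box lay 76 bases before the gene start in Ifnb1, 93 in Ifna1 and Ifna5 and 45 in Ifna4. Counts are therefore not strictly comparable between genes, as different parts of the promoters fall in these windows. Of 32851 such windows over all genes, 23.9% held AANNGAAA, 1.12% held it at least 3 times and 3.94% held GGGANNTTC. Of these matches only the letters are known, and no binding was measured.

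The Ifna members are alike in sequence, which limits how well their reads can be told apart, above all for Ifna1 and Ifna5. Their coding sequences were 87.7% to 94.0% identical over the 6 pairs, with Ifna1 and Ifna5 the closest, and 87.1% to 94.4% identical to the other Ifna genes. Ifnb1 was 61.2% to 62.3% identical to them. An aligned stretch of 90 coding bases, given from position 45 of the coding sequence (48 in Ifna4), sets the 4 copies side by side. Capitals mark the 17 positions at which they are not all the same.
Ifna1: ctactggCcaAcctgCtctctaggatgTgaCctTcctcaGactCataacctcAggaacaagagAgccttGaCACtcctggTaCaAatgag
Ifna5: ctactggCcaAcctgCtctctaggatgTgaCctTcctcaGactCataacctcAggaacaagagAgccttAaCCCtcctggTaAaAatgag
Ifna2: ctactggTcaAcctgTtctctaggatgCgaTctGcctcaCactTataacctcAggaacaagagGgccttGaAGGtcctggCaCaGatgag
Ifna4: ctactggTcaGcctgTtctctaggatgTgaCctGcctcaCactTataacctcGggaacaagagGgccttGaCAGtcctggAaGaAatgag
Every stretch of 50 bases in the annotated transcripts was compared with all other transcripts. In Ifnb1 100% of the 701 stretches occurred in no other gene. The share was 93.6% in Ifna4, 87.8% in Ifna2, 47.8% in Ifna5 and 32.6% in Ifna1, and Ifna1 and Ifna5 had 133 such stretches in common. The Ifna2 transcript ran to 1032 bases while its deposited interval spans 573, so its share may differ within the stretch counted. The read length and the treatment of reads that fit several genes were not stated in the labels. Counts of single Ifna genes, above all Ifna1 and Ifna5, are therefore uncertain, whereas Ifnb1 is free of this problem at that length. The Ifna members are also given as a sum, which reads shared with Ifna genes outside it can still alter. Ifna2 had the most stretches in common with Ifna11 (81), and Ifna4 with Ifna6 (33).

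Total counts ran from 9.73 M to 51.6 M per library (median 44.9 M). Rubcn, the gene targeted in the knockout, stood at 44.4 to 75.8 CPM (counts over TMM-scaled library size, so that levels of libraries of different depth can be compared) in the 15 KO libraries and at 56.1 to 104.6 CPM in the 15 WT libraries. Within each of the 5 conditions every KO library was below every WT library, and KO held 73.6% to 84.7% of the WT mean, so most reads of the gene remained and the check of the labels is a partial one. Dendritic cell genes were well represented: 7 general markers summed to 20206.1 to 22999 CPM and 12 plasmacytoid markers to 5005.7 to 5659.2 CPM in untreated cultures. Human reads can be counted on mouse genes, and 20 T-lineage genes, none expected at a high level in these cells, summed to 86.2 to 106.3 CPM in untreated libraries against 169.5 to 244.1 CPM after 4 h of Jurkat cells. Library KO 1 of 30 min of Jurkat cells stood apart in the interferon genes, as given with the results that rest on it.

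Interferon RNA was present at a sizeable level in one condition. Of all counts of the members, 97.2% for Ifnb1 and 98.8% to 99.5% for the 4 Ifna genes came from the 6 libraries of the Jurkat 4 h condition. In the other 24 libraries no member exceeded 0.238 CPM (Ifnb1, in 1 KO library after 30 min of Jurkat cells). All 5 members passed the filter on low counts, which asked for 0.223 CPM in 3 libraries. The Ifna members reached that level in the 6 libraries of 4 h of Jurkat cells alone, and Ifnb1 in these and in 2 others. They could pass through that condition only, so its difference from the other conditions is given below as a description, while the comparison of KO with WT within it is not fixed by the filter.

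**Figure D1:**
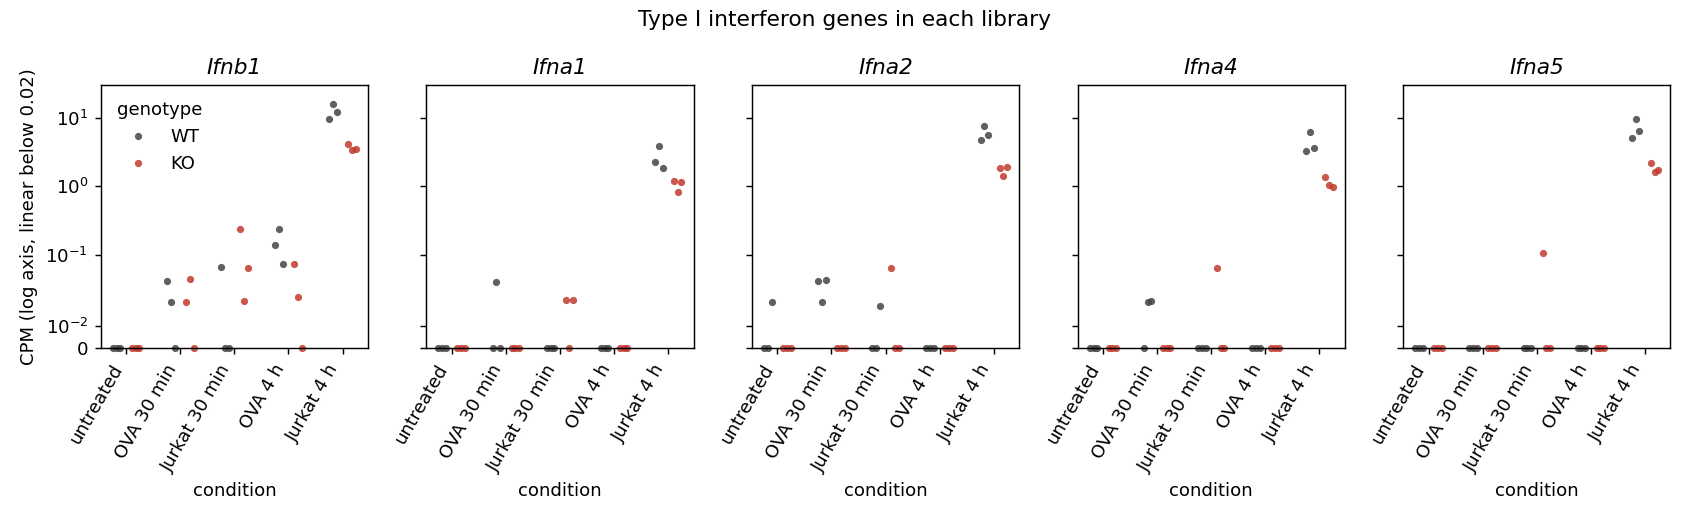
CPM of the 5 interferon genes (vertical axis, logarithmic above 0.02 and linear below) in each of the 30 libraries, by condition (horizontal axis), with WT in grey and KO in red. After 4 h of Jurkat cells every KO library lies below every WT library for each gene. The share of all genes separated in this way was not counted. In the other conditions no point exceeds 0.238 CPM.

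Untreated cultures held almost none of these transcripts. Ifnb1, Ifna1, Ifna4 and Ifna5 had 0 counts in all 6 untreated libraries, and Ifna2 had 1 count, in WT library 3. A count of 0 over the 3 libraries allows up to 0.0214 CPM in WT and 0.0206 CPM in KO (3 counts over the group, counting error only). In untreated cells 0 of 5 members were called between KO and WT, where edgeR called 9.97% of the 14808 genes tested (FDR threshold 0.05). With 1 count of the members over the 6 libraries, no difference was detectable at this depth.

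After 30 min the members were still at or near the floor. With OVA, Ifnb1 had 2, 1 and 0 counts in the 3 WT libraries and 1, 2 and 0 in the 3 KO libraries. Ifna2 had 2, 1 and 2 counts in WT and 0 in each KO library, and Ifna5 had 0 in all 6. KO library 3 of this condition held 9.73 M total counts, against 46.4 M and 42.8 M in KO libraries 1 and 2. Its counts of 0 therefore say less. Between KO and WT 0 of 5 members were called, against 12.4% of all genes, and against untreated cells 0 of 5 were called in WT (10.7% of all genes) and in KO (3.77%). With apoptotic Jurkat cells for 30 min, Ifnb1 had 3, 0 and 0 counts in WT and 11, 1 and 3 in KO. The genotypes overlapped, and the difference was not called (KO 0.108 ± 0.115 and WT 0.0219 ± 0.0379 CPM, SD, n = 3 each; log2 2.21, SE 1.04, edgeR FDR 0.21). Of 5 members 0 were called there, against 9.25% of all genes.

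The counts at 30 min of Jurkat cells came largely from 1 library. KO library 1 held 11 of the 15 KO counts of Ifnb1 and 12 of the 13 KO counts of the Ifna members, with 5 for Ifna5, 3 each for Ifna2 and Ifna4 and 1 for Ifna1. Cxcl10, a chemokine gene induced by interferon, was at 102.6 CPM in that library against 8.99 and 20.6 CPM in the other KO libraries and 4.32 to 4.76 CPM in WT. Its T-lineage sum was 135.6 CPM, within the range of the other libraries of that condition (121.7 to 150.6 CPM). Against untreated KO cells Ifnb1 was called higher (FDR 0.0248 by edgeR), the 1 of 5 members called where 8.72% of genes were called higher. Without KO library 1 the FDR was 0.176, and it was 0.0566 to 0.0714 without any 1 of the untreated KO libraries, so this call rests on single libraries. In WT 0 of 5 members were called at 30 min of Jurkat cells, against 14.2% of genes called higher.

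Ovalbumin for 4 h was followed by a low level of Ifnb1 and no count of the Ifna members. Ifnb1 had 6, 11 and 4 counts in the WT libraries and 4, 1 and 0 in the KO libraries, and in CPM the lowest WT library (0.0741) lay just above the highest KO library (0.0735). The WT mean was 0.149 ± 0.0824 CPM and the KO mean 0.0325 ± 0.0375 CPM (SD, n = 3 each). The genotype difference was not called by edgeR (log2 -1.92, SE 0.876, unadjusted p = 0.038, FDR 0.175). Of 5 members 0 were called between the genotypes, against 12.6% of all genes. Against untreated cells Ifnb1 was called higher in WT (FDR 0.00715 by edgeR, 1 of 5 members where 11.9% of genes were called higher). In KO it was not (FDR 0.246, 0 of 5 members where 5.94% were). In a fit of the compared groups alone Ifnb1 failed the filter on low counts and was not tested. All 4 Ifna members were at 0 counts in the 6 libraries, which allows up to 0.0208 CPM in WT and 0.0219 CPM in KO.

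Apoptotic Jurkat cells for 4 h gave counts for every member in every library. In WT, Ifnb1 was at 9.68, 15.8 and 12.1 CPM, on 369, 529 and 403 counts. Against the floor of 3 counts over the untreated group this was at least 580.3-fold higher for Ifnb1, 325.1-fold for Ifna5, 201.2-fold for Ifna4 and 123.1-fold for Ifna1. Ifna2, with 613 counts against 1, was 820.2-fold higher (95% exact counting interval 146.7 to 32449.5). The corresponding lower bounds in KO were 178.6-fold for Ifnb1, 88.7-fold for Ifna5, 83.9-fold for Ifna2, 54.8-fold for Ifna4 and 51-fold for Ifna1. As these genes passed the filter through this condition, no count of calls against the other conditions is given. Set against OVA at the same time, Ifnb1 was 85.2-fold higher in WT (95% counting interval 55.5 to 138.1) and 100.7-fold higher in KO (42.8 to 311.8). Against 30 min of Jurkat cells it was 592.4-fold higher in WT (202.3 to 2876.5) and 34.3-fold higher in KO (20.6 to 61.9). The Jurkat 4 h libraries are shared by these comparisons, so their values are not independent.

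Between the genotypes, every member was lower in KO than in WT after 4 h of Jurkat cells, to between 25.9% and 39.6% of the WT mean. Of 5 members 5 were called lower and 0 higher by edgeR, where 13.5% of the 14808 genes were called lower and 9.37% higher. For each member every KO library lay below every WT library, but the share of all genes separated in this way was not counted. The separation is therefore given as a description only. The median log2 fold change was -1.77 over the members and -0.009 over all genes. In bulk RNA, fewer cells that make interferon and less RNA per cell cannot be told apart.

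Ifnb1 stood at 4.17, 3.34 and 3.52 CPM in the KO libraries, on 156, 126 and 135 counts, against 9.68, 15.8 and 12.1 CPM in WT. The highest KO library had 43.1% of the level of the lowest WT library. The KO libraries averaged 3.68 ± 0.44 CPM and the WT libraries 12.5 ± 3.09 CPM (SD, n = 3), so that KO had 29.3% of the WT level, with a log2 fold change of -1.77 (SE 0.218, edgeR FDR 3.86e-06).

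Ifna4, whose transcript is also largely unique, was at 1.36, 1.06 and 0.965 CPM in KO and at 3.31, 6.1 and 3.63 CPM in WT. The means were 1.13 ± 0.209 and 4.35 ± 1.53 CPM (SD, n = 3), and the log2 fold change was -1.94 (SE 0.278, edgeR FDR 0.000113). Ifna2 was at 1.82, 1.43 and 1.93 CPM in KO and at 4.67, 7.51 and 5.53 CPM in WT. This came to a log2 fold change of -1.77 (SE 0.222, edgeR FDR 1.12e-05), with KO at 29.3% of WT, the same share as for Ifnb1.

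Ifna5, the most abundant Ifna member, was at 2.17, 1.59 and 1.72 CPM in KO and at 5.09, 9.66 and 6.37 CPM in WT. Its log2 fold change was -1.94 (SE 0.282, edgeR FDR 0.000216). DESeq2 gave nearly the same fold change (-1.96) with an SE of 6.34, against 0.356 for Ifna4, and did not call it (adjusted p = 0.867). Ifna1, with 31 to 44 counts per KO library and 62 to 128 per WT library, was at 1.18, 0.821 and 1.15 CPM in KO and at 2.26, 3.83 and 1.86 CPM in WT. It was the member with the smallest difference, at 39.6% of WT (log2 -1.33, SE 0.289, edgeR FDR 0.00322). Without WT library 2 the log2 fold change was -0.97 and the FDR 0.0307.

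In the sum over the 4 genes reads passed between these copies do not matter, though reads shared with other Ifna genes still can. The Ifna sum averaged 5.73 ± 0.816 CPM over the KO libraries and 19.9 ± 6.28 CPM over the WT libraries (SD, n = 3). The ranges of 4.9 to 6.53 and 15.3 to 27.1 CPM did not overlap. WT library 2 was the highest WT library for each of the 5 members and KO library 2 was the lowest KO library for all but Ifna4. Leaving out any 1 library kept 5 of 5 calls, and over 13 alternative settings the log2 fold change of Ifnb1 lay between -1.93 and -1.56.

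**Figure D2:**
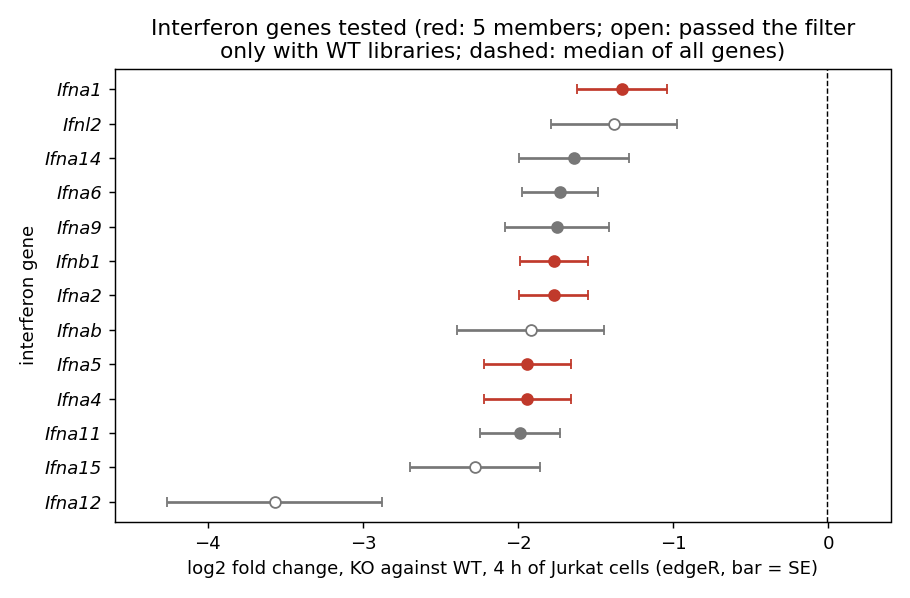
Log2 fold change of KO against WT after 4 h of Jurkat cells (horizontal axis; points, edgeR estimate; bars, SE) for the 13 interferon genes tested, with the 5 members in red and the median of all genes dashed. Open points are the 4 genes that reached the filter's level in 3 libraries only with those of WT after 4 h of Jurkat cells, and the members run from -1.94 to -1.33.

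Whether the response to Jurkat cells differed between the genotypes could not be settled relative to untreated cells. With 4 members at 0 counts in both untreated groups, the model gave them no usable error for such a difference of differences, with any treatment. Ifna2 was not called for Jurkat cells (edgeR log2 0.04, FDR 0.784 at 4 h and log2 3.11, FDR 0.844 at 30 min). Its values rest on 1 untreated count, which cannot decide the question. Further references were tried for Ifnb1 after the data had been seen. With OVA 4 h as the reference the difference was 0.16 on the log2 scale (SE 0.681, edgeR FDR 0.95, where 2.53% of genes were called). Taking Jurkat 30 min as the reference it was -3.98 (SE 1.05, FDR 0.0186, 8.83% called), and without KO library 1 of 30 min it was -2.7 (SE 1.39, FDR 0.279). A larger relative response of Ifnb1 in WT than in KO therefore depended on the reference and on 1 library.

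Levels were compared between genes per kilobase of the deposited interval. In WT after 4 h of Jurkat cells the mean was 16.3 ± 4.01 CPM per kilobase for Ifnb1, 12.3 ± 4.13 for Ifna5, 10.3 ± 2.54 for Ifna2, 6.75 ± 2.37 for Ifna4 and 4.65 ± 1.82 for Ifna1 (SD, n = 3). The corresponding KO means were 4.78 ± 0.572, 3.2 ± 0.532, 3.01 ± 0.459, 1.75 ± 0.324 and 1.84 ± 0.347. Neighbours in this order lay within their spread, except Ifnb1 above Ifna5 and Ifna2 above Ifna4 in KO. Yet 5 of the 6 libraries gave the same full order, Ifnb1, Ifna5, Ifna2, Ifna4, Ifna1, and in KO library 3 Ifna2 stood above Ifna5 and Ifna1 above Ifna4. The intervals are not alike, since those of Ifna1, Ifna2 and Ifna5 match the coding length and that of Ifnb1 is longer, and shared reads affect the Ifna genes, so the order is approximate.

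**Figure D3:**
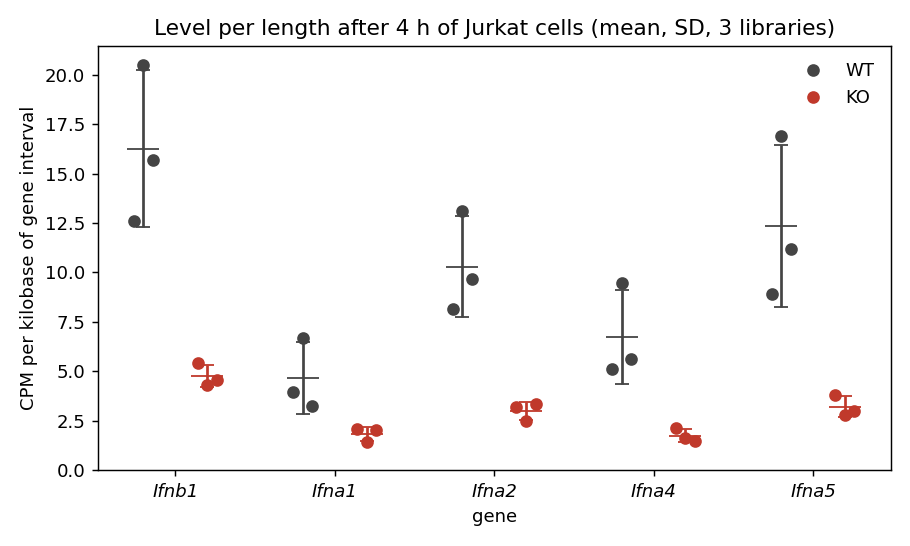
CPM per kilobase of gene interval (vertical axis) for the 5 members after 4 h of Jurkat cells; points are libraries, long ticks group means and bars SD over 3 libraries. Ifnb1 is highest in both genotypes, at 16.3 in WT and 4.78 in KO.

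The make-up of the Ifna RNA was set beside its amount. Ifna5 took 35.2 ± 1.75% of the counts of the 4 Ifna members in WT and 31.8 ± 1.75% in KO, and Ifna1 took 13.2 ± 2.17% in WT and 18.2 ± 1.59% in KO (SD, n = 3). The 3 WT libraries held 10.7% to 14.7% Ifna1 and the KO libraries 16.8% to 19.9%, without overlap (two-sided exact permutation test, p = 0.1, the lowest value possible with 3 libraries on each side, adjusted p = 0.2 over the 4 shares). For the share of Ifna5 the exact test gave p = 0.1 too, with ranges that met at 33.2%. The shares of Ifna2 (30 ± 2.08% in WT and 30.2 ± 2.94% in KO, exact p = 0.9) and Ifna4 (21.7 ± 0.813% and 19.8 ± 2.63%, exact p = 0.5) overlapped. As Ifna1 and Ifna5 share the most sequence, their split is the least certain. The sum of the 4 Ifna members was 1.44 to 1.71 times Ifnb1 in the WT libraries and 1.47 to 1.64 times in the KO libraries. The ratio of these members to Ifnb1 thus overlapped between the genotypes, and other Ifna genes are not in it.

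**Figure D4:**
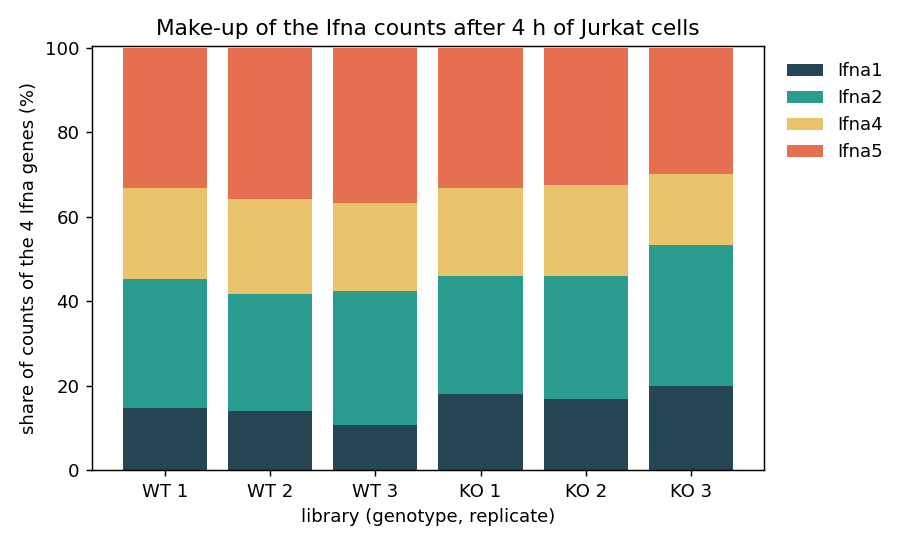
Share of the counts of the 4 Ifna members (vertical axis, percent) taken by each gene in the 6 libraries given Jurkat cells for 4 h (horizontal axis). Ifna1, at the bottom, takes 10.7% to 14.7% in WT and 16.8% to 19.9% in KO.

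Further interferon ligands were counted after 4 h of Jurkat cells. Of 16 further ligand genes on the list, 8 passed the filter. Ifna6, Ifna9, Ifna11 and Ifna14 reached the filter's level in all 6 libraries of that condition, whereas Ifna12, Ifna15, Ifnab and Ifnl2 reached it in 3 libraries only with those of WT, where they are high, so the differences of these 4 are given as a description. Among the first 4, each was called lower in KO. The Ifna members are 87.1% to 94.4% identical to the other Ifna genes in coding sequence. The unique share of these other transcripts was not counted. Reads may therefore be shared, and the calls may not be independent of those of the members. Ifna6 averaged 1.38 ± 0.137 CPM over the KO and 4.61 ± 1.63 CPM over the WT libraries (log2 -1.73, edgeR FDR 5.97e-05), and Ifna11 0.511 ± 0.0619 and 2.04 ± 0.408 CPM (log2 -1.99, FDR 8.49e-05). The log2 fold changes were -1.75 for Ifna9 (edgeR FDR 0.00133) and -1.64 for Ifna14 (FDR 0.00539). Of the genes admitted through WT, Ifna12 had 6 counts over the KO libraries and 69 over the WT libraries, Ifna15 had 16 and 73, and Ifnab averaged 0.255 CPM in KO against 0.984 CPM in WT. Lambda interferons, type III ligands encoded on chromosome 7 that use another receptor, were also counted. Ifnl2, the fourth gene admitted through WT, had a mean of 0.301 ± 0.127 CPM over the KO libraries against 0.793 ± 0.285 CPM over the WT libraries. Ifnl3, too low to be tested, had 16 counts in KO and 26 in WT with overlapping libraries. Ifng, the type II interferon gene, had 22 counts in KO and 16 in WT. DESeq2 called Ifna6 and Ifna11 lower, did not call Ifna9 (adjusted p = 0.811) and gave no adjusted p for the remaining 5 of the 8.

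The genes whose profile over the 10 groups was most like that of Ifnb1 were sought by the mean absolute difference of group means, each scaled to its highest group, among 12816 genes that reached 1 CPM in a group. Members apart, the nearest were Ifna9 (0.00208), Ifna6 (0.00275), Ifna14 (0.00544), Ifna11 (0.00682), Ifi208 (0.0168) and Gm4841 (0.0186). Ifna2, at 0.0028, was the nearest member, and Ifna1, at 0.0127, the farthest. Outside the interferon cluster, Ifi208, an Ifi200 family gene on chromosome 1, averaged 25.6 ± 2.6 CPM (KO) and 80.4 ± 13.7 CPM (WT) after 4 h of Jurkat cells. For the Ifna sum the same 6 genes came first, led by Ifna6 (0.00163). The Ifna genes among them may share reads with the members of that sum, so their nearness to it is uncertain. On a log2(CPM + 1) scale Ifna11 and Ifi208 gave way to Sct and Arhgap8 for Ifnb1.

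Of 29 genes that sense nucleic acids or induce interferon, 0 were called higher and 15 lower in KO after 4 h of Jurkat cells. Over all genes 9.37% were called higher and 13.5% lower. The median log2 fold change of the list was -0.16 against -0.009 over all genes. Without KO library 2, 1 was higher and 7 were lower, and without WT library 2 0 were higher and 7 lower. Zbp1, a sensor of Z-form nucleic acids that is itself induced by interferon, reached 463.7 ± 66.8 CPM in WT but 271.4 ± 14.9 CPM in KO (SD, n = 3). Its log2 fold change was -0.77 (edgeR FDR 0.000316). Tbk1, the kinase that phosphorylates IRF3, fell by 0.20 on the log2 scale (FDR 0.000106), Irf5 by 0.20 (FDR 0.000226) and the adaptor Traf6 by 0.22 (FDR 6e-04 by edgeR). The 3 further genes are named for their role in plasmacytoid cells, after their values had been seen. Irf7 averaged 1815.5 ± 160.8 CPM (KO) and 2533.4 ± 270.2 CPM (WT), a log2 fold change of -0.48 (edgeR FDR 0.0169), and the receptor genes Tlr7 and Tlr9 gave -0.30 (FDR 0.0111) and -0.34 (FDR 0.00192). Without KO library 2 or WT library 2 the calls of Irf7 (FDR up to 0.0981) and Tlr7 (up to 0.122) were lost. Irf3 did not pass the test (log2 0.13, edgeR FDR 0.055). With libraries scaled to total counts, 4 genes of the list were higher and 10 lower. Irf7 and Ifih1 are also on the list of targets. Genes of the sensing list were called lower in the other conditions too. In KO 1 was higher and 9 were lower in untreated cells, as after 30 min of OVA. It was 0 and 3 after 30 min of Jurkat cells and 0 and 12 after 4 h of OVA. In either direction 9.97% of all genes were called in untreated cells and 12.4% after 30 min of OVA. After 30 min of Jurkat cells it was 9.25%, and after 4 h of OVA 12.6%.

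At 4 h of Jurkat cells, where 9.37% of all genes were higher and 13.5% lower in KO, 7 receptor and signalling genes were tested. Of these 0 were higher and 3 lower, and 4 did not pass the test. Those lower were Ifnar2 (log2 -0.28, edgeR FDR 3.08e-06), Ifnar1 (-0.18, FDR 0.00115) and Tyk2 (-0.14, FDR 0.0165), whose call was lost without KO library 2 or WT library 2 (FDR up to 0.135). The KO libraries averaged 243 ± 9.89 CPM of Ifnar2 and the WT libraries 294.5 ± 13.6 CPM (SD, n = 3). In the other conditions 0 of the 7 genes were higher in KO. Lower were 3 in untreated cells (9.97% of all genes called in either direction) and 5 after 30 min of OVA (12.4%). After 30 min of Jurkat cells 3 were lower (9.25%), and 3 after 4 h of OVA (12.6%).

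In 4 of the 5 conditions targets of interferon were called lower and none higher in KO, untreated cells included. In either direction 9.97% of all genes were called in untreated cells and 9.25% after 30 min of Jurkat cells. After 30 min and 4 h of OVA it was 12.4% and 12.6%. Of 21 target genes, 0 were higher and 18 lower in KO in untreated cells (median log2 -1.14), 0 and 14 after 30 min of OVA (-1.03; 9 lower without KO library 2), and 0 and 21 after 4 h of OVA (-1.17). After 30 min of Jurkat cells 3 were higher and 7 lower (median -0.01), in the condition that holds the KO library that stood apart. Without that library 1 was higher and 15 were lower (median -0.50). With 4 h of Jurkat cells the targets rose over untreated cells by a median log2 of 5.26 in KO and 4.47 in WT. This rise was called larger in KO for only 4 of 21 targets and smaller for 0 (median difference 0.6). The share of all genes called by that test is not given here. Between the genotypes 0 were higher and 11 lower in KO there (median -0.48), where 9.37% of all genes were higher and 13.5% lower. A fit of the compared groups alone called 21 lower, whereas 7 were called lower without KO library 2 and 7 without WT library 2. Ifi44 there averaged 116.5 ± 6.72 CPM (KO) and 358.9 ± 36.9 CPM (WT), a log2 fold change of -1.62 (edgeR FDR 3.59e-08), and in untreated cells it gave -3.13 (FDR 2.16e-10). Oas1a, an activator of RNase L, gave -0.70 after 4 h of Jurkat cells (FDR 9.07e-06), and Ifitm3 and Bst2, which restrict virus entry and release, gave -0.41 (FDR 3.16e-06) and -0.36 (edgeR FDR 4.64e-06). Bst2 is also a plasmacytoid dendritic cell marker.

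Cytokine genes driven by NF-kB moved in both directions at 4 h of Jurkat cells, with 2 of 10 higher and 3 lower in KO. Over all genes 9.37% were called higher there and 13.5% lower. Cxcl1, a neutrophil chemokine gene, was higher in KO (log2 0.81, edgeR FDR 7.52e-07), as was Il1b (0.44, FDR 0.0215), whose call was lost without any 1 of 4 libraries (KO 2, KO 3, WT 1 or WT 3; FDR up to 0.0676). Leaving out any 1 library gave 1 to 2 higher and 2 to 3 lower. Ccl4 (-0.70, FDR 0.000325) and Ccl5 (-0.37, edgeR FDR 0.000125) were lower.

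**Figure D5:**
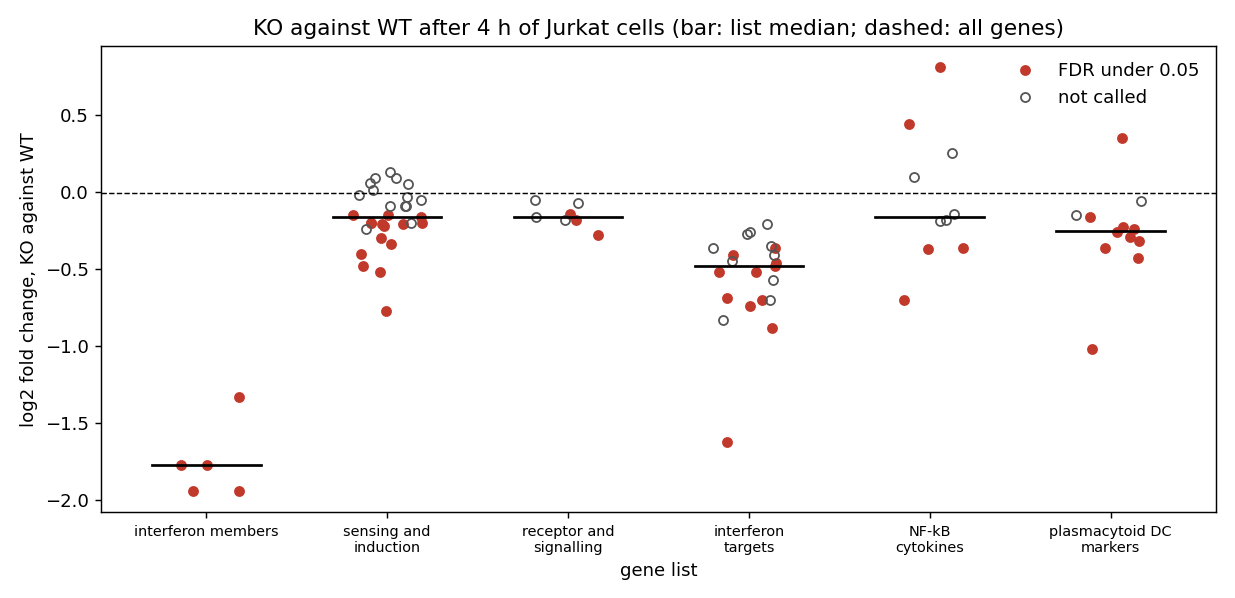
Log2 fold change of KO against WT after 4 h of Jurkat cells (vertical axis) for the tested genes of 6 lists (horizontal axis), filled where called by edgeR; bars are list medians and the dashed line the median of all genes. The median is -1.77 for the members, -0.16 for sensing genes and -0.48 for targets.

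Some markers of the cells in the culture differed between the genotypes too. After 4 h of Jurkat cells 9.37% of all genes were called higher in KO and 13.5% lower. In untreated cells 9.97% were called in either direction. Of 12 plasmacytoid dendritic cell markers 1 was higher and 9 lower in KO after 4 h of Jurkat cells (median log2 -0.25), with 5 lower without WT library 2, and their summed level was 5138.8 to 5754.9 CPM in KO against 6266.4 to 7166.7 CPM in WT. Siglech, a surface receptor typical of these cells, had means of 575.7 ± 36.1 (KO) and 717.2 ± 69 CPM (WT), with a log2 fold change of -0.32 (edgeR FDR 0.000185). In untreated cells 1 plasmacytoid marker was higher and 5 were lower (2 to 5 lower without any 1 library), and the sum was 5005.7 to 5196.2 CPM in KO against 5545.6 to 5659.2 CPM in WT. Conventional dendritic cell markers of type 1 split 2 higher and 3 lower of 8 (1 lower without KO library 2 or WT library 2), and those of type 2 stood at 5 higher and 0 lower of 8. All 6 basophil and mast cell markers and 5 of 6 stromal markers were higher in KO, with medians of 1.62 and 0.45 (3 to 4 stromal markers without any 1 library). General dendritic cell markers stood at 1 higher and 1 lower of 7, monocyte and macrophage markers at 1 higher and 3 lower of 8, and B-lineage markers at 1 higher and 0 lower of 6, each count moving by at most 1 when a library was left out. These last counts are too small to be read as a difference.

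Of 19 T-lineage genes tested, 0 were higher and 6 lower in KO after 4 h of Jurkat cells, where 9.37% of all genes were higher and 13.5% lower. Without KO library 1, WT library 1 or WT library 3, 2 were lower and up to 1 higher. The T-lineage sum was 169.5 to 194.8 CPM in KO against 201 to 244.1 CPM in WT. In untreated cultures, which held no Jurkat cells, the same sum was 99.2 to 106.3 CPM in KO and 86.2 to 92.1 CPM in WT. The origin of these reads was not tested. No marker of these lists was at 0 counts in the groups given Jurkat cells for 4 h. The plasmacytoid and T-lineage levels thus moved in the same direction as the interferon genes, by a smaller amount, and their part in the interferon difference was not tested.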

How the data were processed

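The 30 RNA sequencing libraries of cultured mouse dendritic cells were analysed from 1 table of read counts per gene that the authors deposited. Per the submitters' processing notes, STAR 2.5, Subread, featureCounts 1.5.0-p1 and DESeq2 were used with build mm10. The annotation, the use of strand and the handling of human or multiply fitting reads were not given in the sources used here. Groups and replicate numbers came from the sample titles.

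Counts were scaled with TMM factors and filtered by group with filterByExpr (minimum count 10), which left 14808 genes with 99.99% of counts. TMM factors were 0.765 to 0.842 after 4 h of Jurkat cells and 1.03 to 1.07 elsewhere. Tests were two-sided quasi-likelihood F tests of edgeR 4.0.16 under R 4.3.3, with 1 mean per group over the 30 libraries, adjusted by Benjamini-Hochberg over all genes tested (FDR, threshold 0.05), in 21 contrasts. Each SE was taken as |log2 fold change| over the root of its F value. The script was tested on simulated data. Intervals and floors (3 counts) cover counting error alone, as reads lacking molecular identifiers are no independent molecules. Sequences came from RefSeq (GRCm38.p6) and GENCODE M21 with Python 3.11.15; promoter windows run from 250 bases before to 50 after the gene start, and all 5 members matched by symbol. The promoter of Ifna2 is not printed because its GENCODE transcript covers that stretch.

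Alternatives were DESeq2's size factors, total counts, no filter, at least 1 CPM in 3 libraries, DESeq2 (version 1.42.0), a replicate block, only the groups compared, and leaving out each library. Named genes were all members, up to 4 called genes of each pathway list by smallest p, ligands with at least 10 counts in a library and the 6 nearest profiles. The members and lists were chosen with earlier results of these data known.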

Additional observations from a re-analysis of the deposited data

How the results depend on the processing

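Of 65 log2 fold changes of the members, KO against WT after 4 h of Jurkat cells, recomputed under the alternatives, 64 kept their direction and their side of the threshold, and the other was Ifna5 with the DESeq2 Wald test (log2 -1.96, adjusted p = 0.867; the cause was not tested). For Ifnb1 at 30 min of Jurkat cells against untreated KO cells 1 member was called: the count was 0 with only the groups compared, without KO library 1 of that condition, and without any 1 of the 3 untreated KO libraries (leave-one-out range 0 to 1). Ifnb1 in WT after 4 h of OVA, 1 member called, was 0 with only the groups compared. In both fits of the compared groups alone Ifnb1 failed the filter on low counts.

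Replicate numbers showed no clear pairing: deviations of KO and WT libraries with the same number correlated at -0.118 to 0.108 over 15 pairs. Within a genotype, 60 pairs with the same number gave -0.0703 to 0.217 (median 0.0148). The 120 pairs with different numbers gave -0.213 to 0.139 (median -0.0064). Such weak correlations cannot exclude pairing. With the replicate number as a block, 5 members were called lower in KO after 4 h of Jurkat cells, with Ifnb1 at -1.76 (edgeR FDR 8.47e-06), and no count of members called moved. Scaling to total counts shifted the median of all genes after 4 h of Jurkat cells against untreated cells to -0.423 in WT and -0.372 in KO, and raised the share higher in KO among the genes called at 4 h of Jurkat cells from 40.9% to 74.8%, with the 5 members still lower. Of 21 interferon targets 21 were lower with only the groups compared, against 11. Outside 4 h of Jurkat cells depth limits what can be said, with 0 to 11 counts of a member per library.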
